A study of Arabidopsis thaliana with 6 samples.

Results

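MYB, homeodomain, bHLH and bZIP proteins are transcription factors and related proteins, named here after the domains by which most of them hold DNA. The 51 genes described are those of the authors' lists of changed genes whose deposited descriptions name the Homeodomain-like fold, the basic helix-loop-helix (bHLH) domain or the basic leucine zipper (bZIP) domain. They were selected on the measured change as well, since the authors listed genes by fold change and p-value, and they are 51 of 1336 listed genes. A further 7 genes with such domains, among them MYB21, MYB29 and TT8, were left out by the rule.

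RNA was compared between seedlings of the sams3 mutant and those of L119, a transgenic line that stood in for the wild type; SAMS3 encodes an enzyme that makes S-adenosylmethionine, the methyl donor of the cell. The labels give L119 as the background of the mutant too, so both groups share whatever transgene L119 carries. Each genotype had 2 RNA libraries, made from whole seedlings aged 15 days and grown on sucrose plates at 22 °C with 23 h of light a day. The transgene and the sams3 allele are not described in the sources used here. SAMS3 itself is in neither list, so the labels could not be checked on it, nor the tissue on markers, since the lists give no expression levels.

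The MYB fold is built of helices held by spaced tryptophans. In R2R3 proteins it is repeated, whereas the MYB-like proteins of the clock and the GARP proteins, such as type-B response regulators, carry a single copy. bHLH proteins bind DNA as dimers through a basic region, and related proteins that lack a working basic region block them by pairing with them. In seedlings these families govern elongation in response to light, brassinosteroids and the clock, as well as cuticle, suberin and defence responses.

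Most of the 51 factors fell in sams3. Of these, 33 were lower and 18 higher in the authors' deposited table, so 64.7% were lower and 35.3% higher, beside 33.1% lower and 66.9% higher among all listed genes. The direction was part of the same contrast that chose the genes, so this is a description without a test. The median absolute log2 fold change was 1.52 for the 51 factors and 1.46 for all listed genes in the authors' deposited table. The median fall was -1.48, against -1.27 for all lower genes, and the median rise 1.55, against 1.62 for all higher genes.

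The share of falls was above that of all listed genes in each class of size. At an absolute log2 fold change of 1 to 1.5, 18 factors were lower and 7 higher, or 72% lower beside 42.7% of all listed genes of that size. At 1.5 to 2, 11 were lower and 6 higher, or 64.7% lower beside 29.2%. Of the 9 factors that changed by 4-fold or more, 4 were lower and 5 higher, or 44.4% lower beside 16.8%. In that class 55.6% of the factors were higher, beside 83.2% of all listed genes. Since whole seedlings were used, fewer cells of a type and less RNA per cell cannot be told apart.

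**Figure D1:**
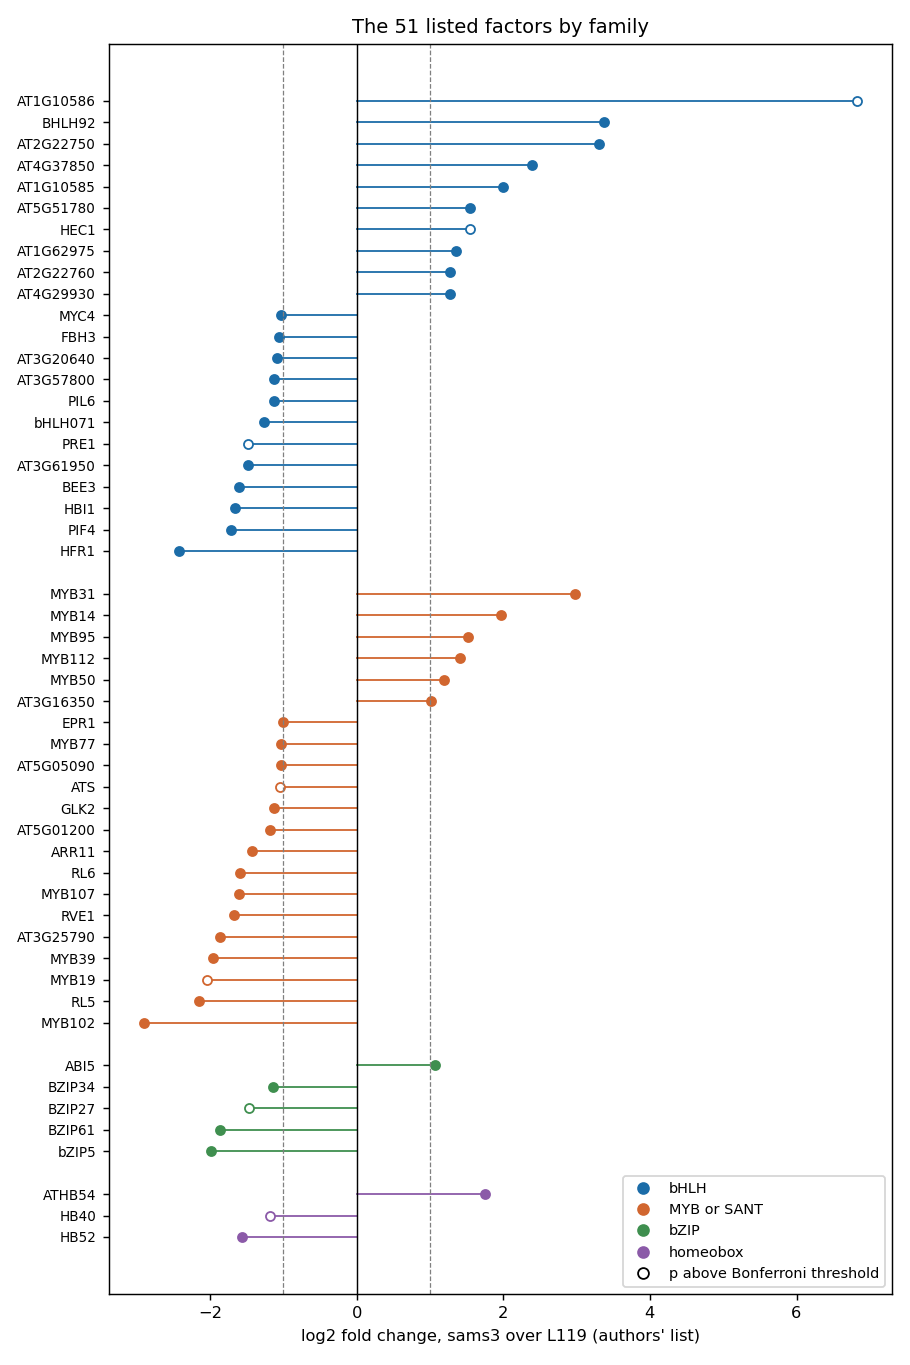
Log2 fold change of each of the 51 factors (horizontal axis, sams3 over L119, authors' values) by family. Dashed lines mark a 2-fold change and open points a p-value above 1.31e-06; the falls reach -2.89 (MYB102) and the rises 6.82 (AT1G10586).

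Families differed in their split. Of 22 bHLH genes, 12 were lower and 10 higher, or 54.5% lower. Of 21 MYB or SANT genes, 15 were lower and 6 higher, or 71.4% lower. Among all listed genes 33.1% were lower. The bZIP genes had 4 falls and 1 rise, and the homeobox genes 2 falls and 1 rise. Within the MYB fold, the 10 R2R3-type genes split evenly, 5 to 5, whereas 8 of 9 genes with a SHAQKYF-class MYB-like domain fell, as did both RADIALIS-like genes. No test of these differences was run, and the bZIP, homeobox, SHAQKYF-class and RADIALIS-like classes hold few genes.

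The bHLH genes that fell included a group that governs seedling elongation. PIF4, a phytochrome-interacting factor that promotes elongation in shade and warmth, was 3.29-fold lower in the authors' deposited table (log2 -1.72, p = 2.89e-110). PIL6, known as PIF5, its closest relative, was 2.19-fold lower in the same deposited table by the authors (log2 -1.13, p = 2.94e-72). HFR1, an HLH protein that pairs with PIF proteins and inhibits them, fell furthest of the bHLH genes in the authors' deposited table, by 5.38-fold (log2 -2.43, p = 1.45e-77). Genes that drive elongation and a gene that restrains it thus changed in the same direction. PIF3, the closest match of HFR1 in the deposited descriptions, was not listed.

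Brassinosteroid-linked bHLH genes fell as well. HBI1, which promotes cell elongation, had the smallest p-value of all 51 factors in the authors' deposited table (log2 -1.66, p = 1.00e-135) and ranked 9 of the 442 lower genes by p. BEE3, a brassinosteroid early response gene, was at -1.60 in the authors' deposited table. PRE1, an HLH protein without a basic region that frees growth factors from their inhibitors, was at -1.48, with a p-value of only 2.87e-05 in the authors' deposited table. BEE1 and BEE2, the closest matches of BEE3 and HBI1, were not listed.

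Genes around this group were counted in a list of bHLH and HLH genes of growth. It was put together from known roles, but with earlier results of these data known. Of its 17 matched loci, 6 were listed, all lower. Besides HBI1, BEE3 and PRE1 these were PAR1, AIF1 and AT3G17100 (AIF3), whose descriptions name none of the domains used to choose the 51. In the authors' deposited table their log2 values were -1.21 for PAR1, -1.01 for AIF1 and -1.02 for AT3G17100. PAR1 and the AIF proteins are known as inhibitors of growth-promoting bHLH factors. Of 10 matched loci of the PIF family list, 3 were lower and 0 higher. For comparison, 1.57% of protein-coding loci of the reference table were listed as lower and 3.11% as higher, though the sources used here do not give how many of them the authors tested. Both lists hold factors already known to be listed, so their shares do not measure an excess over these.

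Other bHLH genes that fell have varied roles. MYC4, a factor of jasmonate signalling, was at -1.03 in the authors' deposited table, and its closest match MYC3 was not listed. FBH3, which activates the flowering gene CONSTANS, was at -1.06 in the authors' deposited table. The gene bHLH071, whose protein pairs with the stomatal factor FAMA, was at -1.27, and none of 5 stomatal bHLH genes was listed by the authors. The unnamed bHLH genes AT3G61950, AT3G57800 and AT3G20640 were at -1.49, -1.13 and -1.09 in the authors' deposited table.

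Of the 10 bHLH genes that rose, 8 have no symbol in the reference table, and 3 of the 10 had the largest folds of all 51 factors. AT1G10586 had a log2 fold change of 6.82 in the authors' deposited table, yet a p-value of 4.05e-06, which ranked 808 of 894 higher genes. Where counts in L119 are near 0, a fold of this size depends on how such counts were handled, and levels were not used here. BHLH92, known from salt and osmotic stress, was 10.3-fold higher in the authors' deposited table (log2 3.37, p = 6.08e-44). AT2G22750 was at 3.31 (p = 4.30e-17), AT4G37850 at 2.40 (p = 5.19e-22) and AT1G10585 at 2.00 (p = 4.05e-25) in the authors' deposited table.

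Smaller rises were those of AT5G51780 (log2 1.55, p = 5.81e-17) and HEC1 (1.55, p = 7.31e-06) in the authors' deposited table. HEC1 acts in the carpel transmitting tract and in the shoot meristem. AT1G62975, AT2G22760 and AT4G29930 were at 1.36, 1.28 and 1.27 in the authors' deposited table. None of the 10 higher bHLH genes belongs to the lists of iron, root hair, stomatal, tapetum, PIF or growth bHLH genes. In these lists 0 loci were higher, beside only 3.11% of all protein-coding loci of the reference table. The lists are small, and that of the tapetum matched 2 of its 5 entries.

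**Figure D2:**
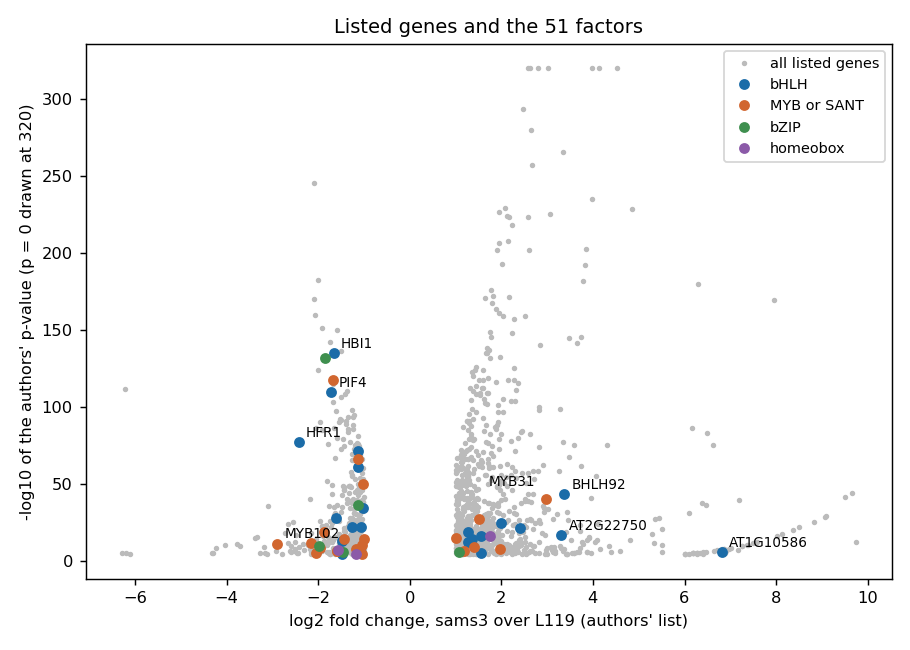
Log2 fold change (horizontal axis) against -log10 of the authors' p-value (vertical axis) for all 1336 listed genes in grey and the 51 factors in colour. HBI1 lies highest of the factors on the left, and AT1G10586, the rightmost of them at 6.82, lies near the bottom.

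Ranks by p were counted within each direction. The median rank of the lower factors was 219 of 442, the middle of that list, and that of the higher factors 527.5 of 894. The factors are 33 of the 442 lower genes, and 5 of the 44 with the smallest p-values: HBI1, BZIP61, RVE1, PIF4 and HFR1. They are 18 of the 894 higher genes, and 0 of the 89 with the smallest p-values. BHLH92 came first of the 18 higher factors and ranked 266 of 894. Such ranks depend on expression level as well as on fold.

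R2R3-MYB genes went both ways. The largest fall of all 51 was that of MYB102, a gene of wounding and osmotic stress (log2 -2.89, p = 7.59e-12), a 7.42-fold drop in the authors' deposited table. MYB39 and MYB107, which regulate suberin, were at -1.95 (p = 7.81e-09) and -1.60 in the authors' deposited table. Both have the same closest match, MYB9, which was not listed. MYB19 was at -2.04 with p = 6.47e-06, and MYB77, an auxin-response factor of lateral roots, at -1.03 in the authors' deposited table.

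The R2R3-MYB genes that rose were MYB31, MYB14, MYB95, MYB112 and MYB50. MYB31, of the group that regulates cuticular wax, was 7.90-fold higher in the authors' deposited table (log2 2.98, p = 4.77e-41). MYB14, known from cold tolerance, was at 1.97 (p = 2.70e-08) and MYB95 at 1.52 (p = 5.19e-28) in the authors' deposited table. MYB112, which promotes anthocyanin formation under salinity and strong light, was at 1.41, and MYB50 at 1.19 in the authors' deposited table. The closest matches of MYB31 and MYB14, which are MYB96 and MYB13, were not listed.

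By list, stress and defence R2R3-MYB genes had 3 rises and 1 fall among 21 loci, and the wax and drought list 1 rise (MYB31) and 1 fall (MYB102) among 9. The lists for phenylpropanoids, the secondary wall, and meristem, root and reproduction held 14, 12 and 23 loci, of which 0 were listed. They do not hold MYB21 and MYB113, which were listed as higher, or MYBL2, listed as lower, all left out by the rule. The count of 0 thus holds for the loci of these lists, not for every MYB gene of such roles. Over all 116 reference loci with a numbered MYB symbol, 8 were higher and 7 lower. That is 6.90% and 6.03%, counting MYB genes left out by the rule, beside 3.11% and 1.57% of protein-coding loci. How many loci the authors tested is not known, and no test of these shares was run.

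The MYB-like genes of the clock and the GARP genes that were listed mostly fell. RVE1, a morning gene that links the clock to auxin, was 3.20-fold lower in the authors' deposited table (log2 -1.68, p = 7.37e-118). EPR1, known as RVE7, was 2.01-fold lower, the fall nearest to the 2-fold threshold in the authors' deposited table. Of 9 matched clock loci of this kind, 2 were lower and 0 higher. Over the 322 distinct loci of all 27 gene lists by role, 24 (7.45%) were lower and 7 (2.17%) higher. All of these lists were chosen with earlier results known. Over all protein-coding loci of the reference table the shares were 1.57% lower and 3.11% higher. CCA1 and LHY, the core MYB-like genes of the clock, were not listed. Among 14 clock partners without these domains, PRR9 (-2.61) and AT5G06980, known as LNK4 (-1.62), were lower in the authors' deposited table and 0 were higher.

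GLK2, which activates chloroplast genes, was at -1.13 in the authors' deposited table, and ARR11, a type-B response regulator of cytokinin signalling, at -1.43. ATS (KANADI 4), which shapes the ovule integument, was at -1.05 with a p-value of 7.41e-05 in the authors' deposited table. These were the 3 lower of 20 matched GARP loci (26 entries) of phosphate, chloroplast and cytokinin, and 0 were higher. The shares over all 27 lists were 7.45% lower and 2.17% higher, and those over all protein-coding loci 1.57% and 3.11%. AT3G25790, whose closest match is HRS1, a gene of the phosphate and nitrate response, was at -1.87 (p = 3.29e-19) in the authors' deposited table. It is not part of the GARP list. AT5G01200 and AT5G05090, both unnamed, were at -1.18 and -1.03 in the authors' deposited table. AT3G16350 was the sole rise of this class, at 1.02 in the authors' deposited table. RL5 (-2.15, p = 3.06e-12) and RL6 (-1.58), small SANT proteins related to RADIALIS of snapdragon, fell in the authors' deposited table.

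**Figure D3:**
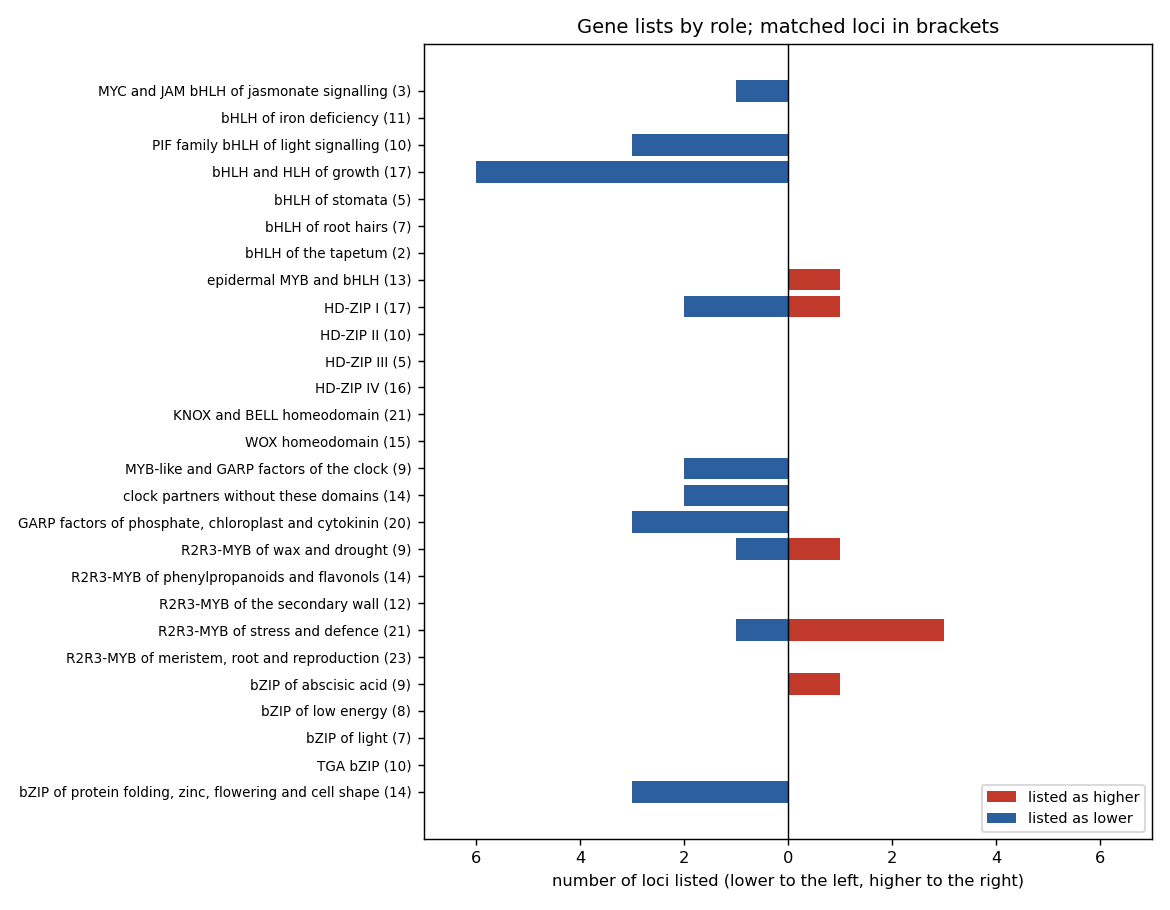
Number of loci listed as lower (left) or higher (right) in each of 27 gene lists by role, with the number of matched loci in brackets. Growth bHLH and HLH genes hold 6 falls and 0 rises, and 15 of the lists hold no listed gene.

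Among bZIP genes, BZIP61 and BZIP34 fell, which are each other's closest match in the deposited descriptions. BZIP61 was 3.63-fold lower (log2 -1.86, p = 1.25e-132) and BZIP34 at -1.13 in the authors' deposited table. The gene bZIP5 was at -1.99 (p = 2.87e-10) in the authors' deposited table. BZIP27, known as FDP, the relative of the flowering factor FD, was at -1.46 in the authors' deposited table, and FD was not listed. ABI5, the abscisic acid factor of seeds and young seedlings, was the rise, at 1.07 in the authors' deposited table. None of the other 8 matched bZIP genes of abscisic acid was listed, nor any of the 7 of light, which include HY5, the 8 of low energy or the 10 TGA genes. Of all protein-coding loci of the reference table, 3.11% were listed as higher and 1.57% as lower. Beside these shares, 0 in lists of this size is no result about these classes.

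The homeobox genes among the 51 all belong to the class HD-ZIP I. HB52, annotated with responses to blue light and to darkness, was at -1.56, and HB40, linked to bud dormancy, at -1.18 with p = 3.28e-05 in the authors' deposited table. ATHB54 rose, with a log2 of 1.76 (p = 8.22e-17) in the authors' deposited table. These 3 were the listed ones of 17 HD-ZIP I loci, beside 9.63% of the 322 loci of all 27 lists. In the lists of HD-ZIP II, III and IV, KNOX and BELL, and WOX genes, with 10, 5, 16, 21 and 15 loci, 0 were listed. Of all protein-coding loci, 3.11% were listed as higher and 1.57% as lower. FWA, an HD-ZIP IV gene known to be silenced by DNA methylation, was among those not listed.

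Closest relatives changed in the same direction where both were listed, as most did among all listed genes. The deposited descriptions name a best protein match for each of the 51 factors, and for 11 of them that match was itself listed, always in the same direction. Of all 1203 listed genes with such a match, 282 had it listed, 261 in the same direction and 21 in the opposite one. The share with a listed match, 21.6%, was thus near the 23.4% of all listed genes. One of the 11 is BHLH92, whose match TT8 rose (log2 1.45 in the authors' deposited table) and was left out by the rule. The other 10 form 5 reciprocal pairs within the 51, 3 lower and 2 higher, so each pair is counted from both sides. In the lower pairs (RL5 and RL6, BZIP61 and BZIP34, PIF4 and PIL6) the log2 values differed by 0.57 to 0.73 in the authors' deposited table. The higher pairs differed by more, by 0.91 for AT4G37850 and AT2G22750 and by 4.83 for AT1G10585 and AT1G10586. Reads shared between such relatives could make their single values less certain, and the sources used here do not say how reads were assigned.

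**Figure D4:**
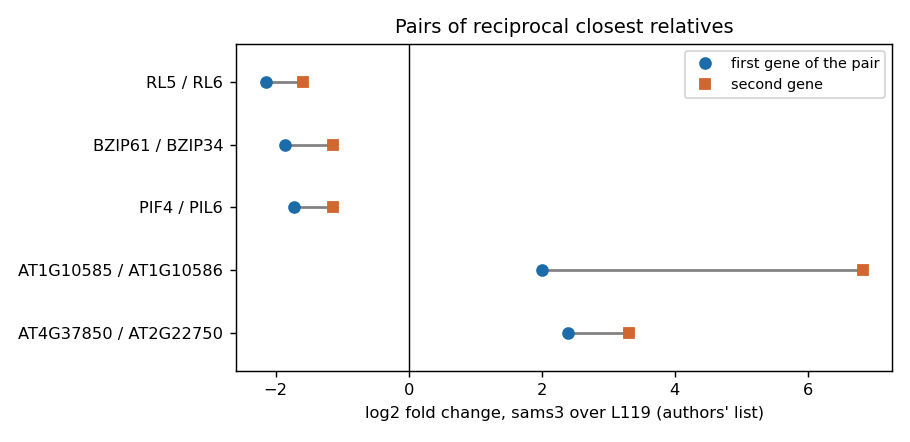
Log2 fold change of both genes (circle and square) in each of the 5 pairs of reciprocal closest relatives among the factors. Each pair lies on 1 side of 0; AT1G10585 and AT1G10586 lie furthest apart, at 2.00 and 6.82.

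Neighbours on the chromosome were listed together in few cases. AT1G10585 and AT1G10586 are adjacent loci and also closest relatives, and AT2G22750 is adjacent to AT2G22760. MYB95 is adjacent to FUT3, which rose (log2 1.01 in the authors' deposited table). AT3G25790, which fell, is adjacent to AOC3, an enzyme gene of jasmonate synthesis that rose (1.37 in the authors' deposited table). In all, 6 of the 51 factors had an adjacent listed locus, or 11.8%, against 16.8% of 1335 placed listed genes.

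Where the deposited descriptions give the breadth of expression, the bHLH genes that fell have more plant structures than those that rose. Structures are given for 9 of the 12 lower bHLH genes, at 13 to 22 structures with a median of 18. For 4 of the 10 higher bHLH genes they give 1 to 9, with a median of 4.5, so these 13 annotated genes do not overlap by direction, and the other 6 higher genes have no annotation. Over all listed genes the medians were 15 structures for lower and 10 for higher genes, with overlapping ranges of 1 to 27 and 1 to 28. Any structure was named for 47.1% of all lower and 53.8% of all higher genes. Of the lower bZIP and homeobox genes, BZIP61 has 20 structures, within the range of the lower bHLH genes, and bZIP5, BZIP34, HB40 and HB52 have 5, 3, 4 and 2. RL5, a lower SANT gene, has 11. Over all families the lower factors thus range from 2 to 22 structures, which overlaps the 1 to 9 of the higher ones. Descriptions that name no structure, 32 of the 51, are left out of these values.

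**Figure D5:**
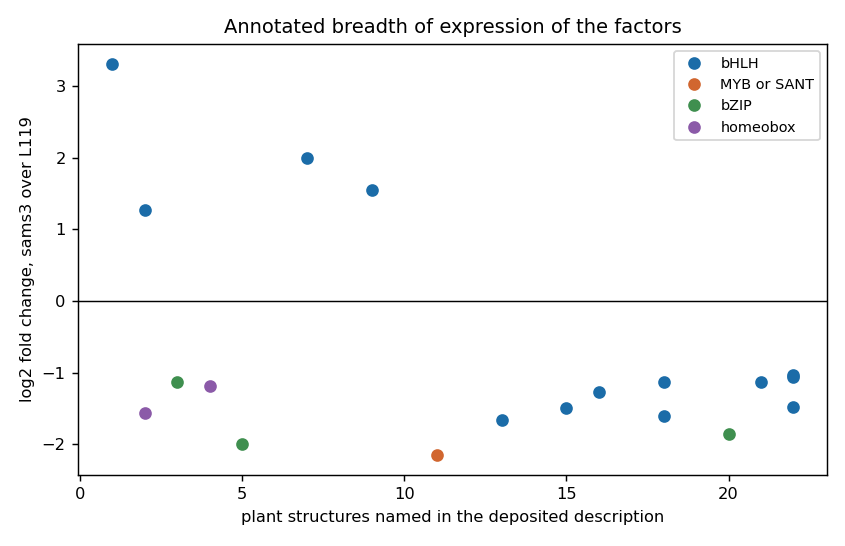
Plant structures named in the deposited description (horizontal axis) against log2 fold change (vertical axis) for the 19 factors whose descriptions name any. Lower bHLH genes lie at 13 to 22 structures and higher ones at 1 to 9.

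The factors nearest to the authors' threshold of a 2-fold change were EPR1, MYC4 and MYB77 among falls, 2.01-, 2.04- and 2.04-fold lower in the authors' deposited table. Among rises they were AT3G16350, ABI5 and MYB50, 2.03-, 2.10- and 2.27-fold higher in the authors' deposited table. Genes just outside it were not analysed here. Of the 51 factors, 7 (MYB19, PRE1, BZIP27, HB40, ATS, HEC1 and AT1G10586) had p-values above 1.31e-06, a Bonferroni level for 38095 reference loci at 0.05. Of the others, 28 were lower and 16 higher.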

How the data were processed

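The values are log2 fold changes (sams3 over L119) and p-values that the authors deposited, in lists of higher and lower genes. Per the file headers, the authors required a change of 2-fold or more and a p-value under 0.0001, without saying if p was adjusted. Named in the submitters' processing notes are edgeR, Bowtie2, Bismark and TAIR10, without roles or versions. Values per library, standard errors and depth are unknown here, and the labels do not say that the 2 libraries of a genotype came from separate cultures, so the p-values may measure technical spread.

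Genes were assigned to families by InterPro identifiers in the deposited descriptions; 263 of the 1336 descriptions hold none. Symbols and the order of loci were read from RefSeq's TAIR10.1 table, which holds all 51 factors, 36 with a symbol. Its build name differs from the authors', so no coordinates are given. The members and the 27 gene lists (347 entries, 23 unmatched, 322 distinct loci) were chosen with earlier results of these data known. Every factor is named, with p-values for the 10 largest changes and 5 smallest p-values in each direction, and for some others chosen after their values were seen. No test was run. Promoter and protein sequences were not used here. Counting was tested on simulated descriptions. Python 3.11.15, pandas 2.3.3, numpy 2.4.6, scipy 1.17.1 and matplotlib 3.10.9 were used.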

Additional observations from a re-analysis of the deposited data

How the results depend on the processing

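With an absolute log2 fold change of at least 2, 5 factors were higher and 4 lower (55.6% higher), and their median absolute log2 was 2.89. By family this left 4 higher and 1 lower bHLH genes, 1 higher and 3 lower MYB or SANT genes, 0 and 0 bZIP genes and 0 and 0 homeobox genes. A stricter size leaves fewer genes. Under the Bonferroni threshold 1 of 2 lower homeobox genes was left, which was the only count to move by over 1.5 times. Including the 7 genes left out by the rule, or counting neighbouring factors once, kept each count within 1.5 times. Every Homeodomain-like gene had a homeobox, MYB or SANT identifier, so leaving out those without one could change nothing. No paired analysis was possible because the lists hold no values per library. For that reason leaving out each replicate, filters on low values and another normalization or tool were not run either. Promoter motifs with their windows, and protein features, were not run because no sequence tables were used. Depth is unknown, so a gene that was not listed is not shown to be unchanged.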
